A study of Mus musculus with 6 samples.

Results

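The genes that lie around *Egr1* on mouse chromosome 18 were followed in fat lacking *Egr1*. Of 47069 genes in the count tables, 244 started between positions 29859823 and 39864984 of chromosome 18 (GRCm38), within 5 Mb of *Egr1* (34859823 to 34864984, plus strand). Of these, 94 had at least 10 counts in 3 or more mice and were kept as members, out of 18017 genes that met the same limit in the whole tables. Another 86 were below the limit, of which 29 had no count in any mouse and 18 were protein coding. The remaining 64 were left out by name, 60 protocadherin genes (symbols starting *Pcdh*) together with *Egr1*, *Ndufa2*, *Fgf1* and *Slc25a2*. The members comprised 79 protein coding genes, 4 antisense RNAs, 4 lincRNAs and 7 other transcripts, with 41 starting below *Egr1* and 53 above it.

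RNA was measured in the inguinal subcutaneous white adipose tissue (SC-WAT) of 2-week-old female C57BL/6 mice, 3 *Egr1*+/+ and 3 *Egr1*-/-, with 1 library per mouse. The line was kept on a C57BL/6 J background. The *Egr1*-/- mice carried on both chromosomes an allele with LacZ inserted in the 5′ UTR and a frameshift before the DNA-binding domain. The allele was present in every cell, and *Egr1*+/+ mice had neither insertion nor frameshift. Whole fat pads were used, so fewer cells of a type and less RNA per cell cannot be told apart.

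EGR1 is a zinc finger transcription factor made within minutes of growth factor or mechanical stimulation. A targeted allele is inherited together with the genes next to it, and neighbouring genes share chromatin surroundings with the targeted locus, so neighbours are routinely examined in mutant lines. The stretch around *Egr1* holds genes of unrelated roles. Among them are the mitochondrial chaperone gene *Hspa9*, the Wnt pathway antagonist gene *Apc*, the glucocorticoid receptor gene *Nr3c1* and the protocadherin clusters, whose members were not analysed here.

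Counts on genes ranged from 29661984 to 42357981 per mouse, and 50.0 to 66.3% of them were mitochondrial. The highest mitochondrial share was in *Egr1*-/- replicate 1. The members took 74223 to 118675 counts per mouse. The summed level of 7 adipocyte markers was 5841 to 6227 CPM (normalised read count) in *Egr1*+/+ and 4645 to 5629 CPM in *Egr1*-/- mice. Most of that sum was *Fabp4*, at 2980 to 4200 CPM. The list was mixed, with *Adipoq* and *Lep* lower, *Lipe* higher and no other marker called at an unadjusted edgeR p under 0.05. The sum of 7 skeletal muscle markers varied within both genotypes, from 187 to 2965 CPM and from 89.2 to 2449 CPM. The 6 mammary epithelium markers summed to 1.54 to 12.2 CPM and 5.72 to 9.25 CPM. CPM values here are counts scaled by the total and the TMM factor of each library, and no marker of these lists was at 0 in every mouse.

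*Egr1* itself, which checks the genotype labels, had 353, 241 and 711 counts in *Egr1*+/+ and 103, 84 and 57 in *Egr1*-/- mice. Its log2 fold change was -2.19 (SE 0.30, 95% interval -2.86 to -1.51), with an edgeR quasi-likelihood p adjusted by Benjamini-Hochberg of 0.0878. The genotypes did not overlap. The adjusted p ran from 1.39e-20 to 0.469 over the alternatives listed at the end, and without *Egr1*-/- replicate 1 it was 0.0484.

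No member was past an adjusted p of 0.05 in the comparison of *Egr1*-/- with *Egr1*+/+ mice by edgeR. Of 92 members tested, 8 had an unadjusted p under 0.05, which is 8.70% against 10.7% of all 17667 genes tested. Of these, 2 were higher in *Egr1*-/- mice (2.17%, against 5.06% of all genes) and 6 were lower (6.52%, against 5.60%). The share of members called was thus below that of all genes in the higher direction and close to it in the lower. Past the adjusted threshold were 3 genes of the whole table (0.0170%). By limma-voom 9 members had an unadjusted p under 0.05 (9.78%, against 10.6%) and none was past the adjusted threshold (against 0.00566%). DESeq2 placed 1 of the 85 members with an adjusted p past that threshold, *Nrep* (1.18%, against 2.05%), and 7 of 94 below an unadjusted 0.05 (7.45%, against 4.74%). The latter share is over 38259 genes without a filter on low counts, whereas the members had all met a count limit, so these shares are not over like sets. The 2 members not tested by edgeR were *Gm26672*, with 3 to 19 counts per mouse, and *Rell2*, with 5 to 16.

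The values of the 3 mice of each genotype did not overlap in 16 of the 92 members (17.4%, against 16.3% of all genes). In 11 of these all *Egr1*-/- mice were lower (12%, against 8.10%) and in 5 all were higher (5.43%, against 8.15%). With 3 mice against 3 an exact two-sided permutation test cannot give a p below 0.1. More members had a negative than a positive fold change, 61 of 92 (66.3%, against 49.9%). Leaving out any single mouse gave shares of 57.4 to 62.8%, against 47.4 to 52.1% of all genes. Without *Egr1*+/+ replicate 1 it was 57.4% against 52.1%. The median log2 fold change of the members was -0.07, with quartiles at -0.23 and 0.13, while that of all genes was 0.00. With single mice left out, the members' median minus that of all genes ran from -0.12 (without *Egr1*+/+ replicate 2) to -0.02 (without *Egr1*+/+ replicate 1). The median absolute log2 fold change was 0.20 in the members and 0.19 in all genes. The 296 genes tested elsewhere on chromosome 18 had a median of -0.03, with 162 negative (54.7%, against 49.9%). At an unadjusted p under 0.05, 15 of them were higher and 25 lower (13.5%, against 10.7% of all genes).

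**Figure D1:**
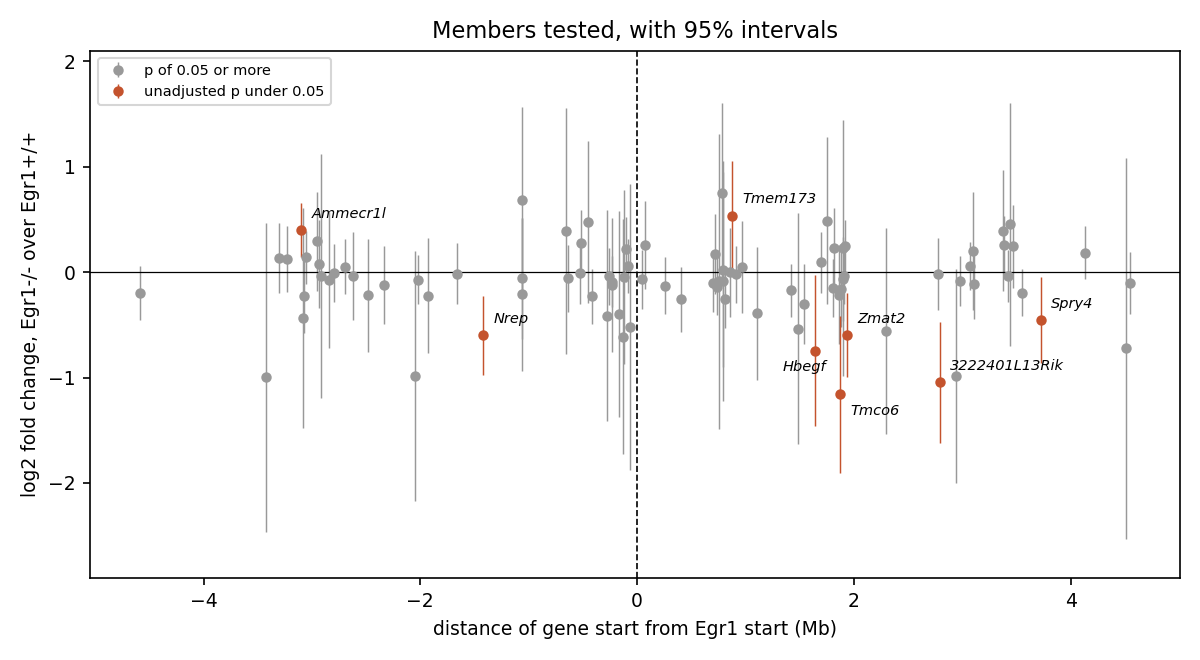
Log2 fold change (*Egr1*-/- over *Egr1*+/+, y axis) of each of the 92 tested members against the distance of its start from that of *Egr1* in Mb (x axis), with 95% intervals as lines. The 8 members with an unadjusted p under 0.05 are in orange and named. Little steady rise or fall with distance is seen, with a Spearman rho of 0.07 between absolute distance and absolute log2 fold change. Medians of the log2 fold change are -0.05 within 1 Mb, -0.16 from 1 to 2.5 Mb and -0.03 from 2.5 to 5 Mb.

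The size of the difference showed little order by distance from *Egr1*. Across the 92 members, Spearman's rho of absolute distance with absolute log2 fold change was 0.07 and with signed log2 fold change 0.02, as descriptions over genes that share the same 6 libraries. Within 1 Mb of *Egr1*, 32 members had a median log2 fold change of -0.05, 21 of them negative, and only *Tmem173* had an unadjusted p under 0.05. Between 1 and 2.5 Mb, 28 members had a median of -0.16 and 22 were negative, with *Nrep*, *Hbegf*, *Tmco6* and *Zmat2* lower. Between 2.5 and 5 Mb, the 32 tested members had a median of -0.03, with *Ammecr1l* higher and *3222401L13Rik* and *Spry4* lower. From the nearest to the farthest band, 3.1%, 14.3% and 9.4% of the tested members were called, against 10.7% of all genes. Members starting below *Egr1* had a median of -0.06 and those starting above it -0.08. Called were 2 members of 41 below (4.88%) and 6 of 51 above (11.8%), against the same 10.7%. With so few calls, nothing is read from these shares. Of 91 pairs of neighbouring members, 51 had the same sign (56.0%), against 54.7% of neighbouring pairs over all genes.

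The stretch from *Hbegf* to *Zmat2* was looked at because it held 3 called members, a choice made after the values had been seen. Of its 13 members, *Hbegf*, *Tmco6* and *Zmat2* were lower at an unadjusted p under 0.05 (23.1%, against 5.60% of all genes), a share from which nothing is read because the stretch was picked for its calls. The others included *Hars2*, the mitochondrial histidyl-tRNA synthetase gene, at 17.7 ± 1.49 CPM in *Egr1*+/+ and 20.96 ± 0.357 CPM in *Egr1*-/- mice (SD, n = 3 each), all *Egr1*-/- values being higher. Beside it *Hars*, the cytosolic enzyme gene, was at 19.9 ± 0.440 and 19.4 ± 2.22 CPM, with overlapping values. The median log2 fold change over the 13 members was -0.06, so the 3 lower genes lay among neighbours on both sides of 0.

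No difference was detected in the genes nearest to *Egr1*. The 5 members on each side whose starts were closest had a median log2 fold change of -0.09, 7 negative and 3 positive, and none reached an unadjusted p of 0.05 or was free of overlap between genotypes. *Kdm3b*, a histone H3 lysine demethylase gene ending 21.2 kb before *Egr1*, had 46.9, 46.6 and 47.2 CPM in *Egr1*+/+ mice and 43.2, 51.9 and 51.4 CPM in *Egr1*-/- mice. One *Egr1*-/- mouse was below all controls and the other two above them, and the log2 fold change was 0.06 (95% interval -0.20 to 0.31). On the other side *Etf1*, the translation release factor gene whose body begins 37.8 kb after that of *Egr1* ends, had 94.2, 83.3 and 87.2 CPM against 84.4, 74.5 and 93.4 CPM. Its values overlapped, with a log2 fold change of -0.07 (95% interval -0.35 to 0.21).

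*Hspa9*, which encodes a mitochondrial chaperone of the HSP70 family, was the member with the most counts per kb of exon. It had 470.4, 333 and 407 CPM in *Egr1*+/+ and 429, 419.9 and 593 CPM in *Egr1*-/- mice. The highest value was in an *Egr1*-/- mouse and the lowest in an *Egr1*+/+ mouse, and the log2 fold change was 0.25 (95% interval -0.16 to 0.67). *Fam53c* was at 9.89 ± 0.526 and 11.5 ± 1.36 CPM (SD, n = 3 each, log2 fold change 0.22), and the mitotic phosphatase gene *Cdc25c* at 0.505 ± 0.178 and 0.326 ± 0.115 CPM (-0.61). *Ctnna1*, which encodes alpha-E-catenin of adherens junctions, was at 86.1 ± 4.87 and 78.8 ± 8.43 CPM (-0.13). The values of *Sil1*, the nucleotide exchange factor gene of the endoplasmic reticulum, were 16.8 ± 0.966 and 14.1 ± 2.14 CPM (-0.26), and those of *Matr3*, a nuclear RNA-binding protein gene, 137 ± 13.2 and 128 ± 9.59 CPM (-0.10). *Gm3550* was at 0.989 ± 0.408 and 0.957 ± 0.0513 CPM (-0.05). *Gm26538*, a lincRNA with 99.1% of its exon bases opposite exons of *Kdm3b*, was at 0.747 ± 0.584 and 0.514 ± 0.0532 CPM (-0.52). In 8 of these 10 members the 95% interval lay between -1 and 1 on the log2 scale, *Cdc25c* and *Gm26538* being the exceptions.

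**Figure D2:**
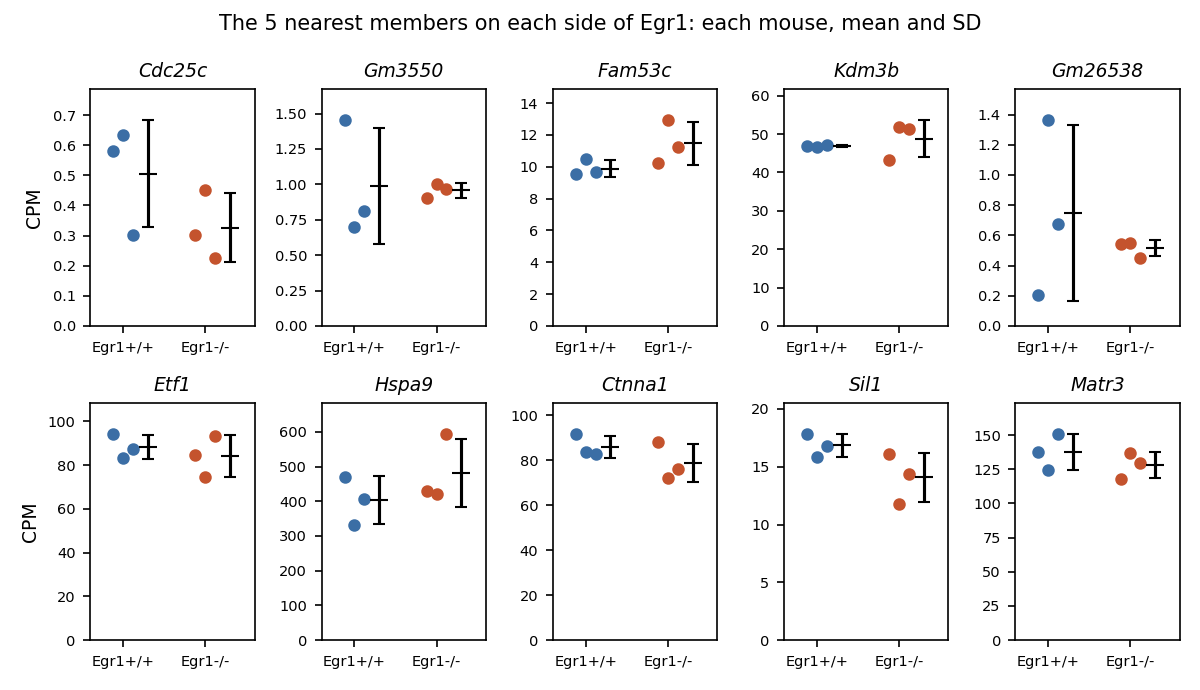
CPM (y axis) of the 5 members on each side of *Egr1* with the nearest starts in each mouse, *Egr1*+/+ in blue and *Egr1*-/- in orange, with mean and SD as bars. Values of the genotypes overlap in all 10 panels, from *Gm26538* below 1.5 CPM to *Hspa9* at 333 to 593 CPM.

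The 8 members with an unadjusted p under 0.05 differed by 1.32- to 2.23-fold. None was among the 10 genes nearest to *Egr1*. The lowest p belonged to a lincRNA, and the rest were protein coding.

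*3222401L13Rik* (chr18:37655451-37661742, plus strand) is a lincRNA next to *Taf7*. It had 2.5, 1.93 and 2.13 CPM in *Egr1*+/+ and 1.14, 1.0 and 1.03 CPM in *Egr1*-/- mice. All *Egr1*-/- values were below all *Egr1*+/+ values, with means of 2.19 ± 0.290 and 1.06 ± 0.0730 CPM (SD, n = 3 each), 2.06-fold lower. The log2 fold change was -1.05 (SE 0.25, 95% interval -1.62 to -0.47), with an edgeR quasi-likelihood p of 0.00256 and a Benjamini-Hochberg adjusted p of 0.223. The neighbouring *Taf7*, a subunit gene of the general transcription factor TFIID, was at 18.1 ± 3.52 and 17.9 ± 0.267 CPM (log2 fold change -0.02).

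*Nrep* (chr18:33437019-33464029, minus strand) encodes a small protein described in regenerating neurons and in myofibroblasts. It had 39.8, 39.3 and 33.2 CPM in *Egr1*+/+ and 31.1, 20.4 and 22.6 CPM in *Egr1*-/- mice, with no overlap. The log2 fold change was -0.60 (SE 0.17, 95% interval -0.98 to -0.22, 1.52-fold lower), with an edgeR p of 0.00579 and an adjusted p of 0.256, while DESeq2 gave an adjusted p of 0.0463. Beside it, 5 stromal progenitor markers (*Pdgfra*, *Dpt*, *Pi16*, *Ly6a* and *Dcn*) summed to 944 to 1039 CPM in *Egr1*+/+ and 516 to 734 CPM in *Egr1*-/- mice, all 5 lower at an unadjusted edgeR p under 0.05. None was at 0 in every mouse, and their part in the result was not tested.

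*Tmco6* (chr18:36735039-36742397, plus strand), a transmembrane protein gene, had 2.42, 2.63 and 3.34 CPM in *Egr1*+/+ and 1.65, 0.710 and 1.39 CPM in *Egr1*-/- mice. The genotypes did not overlap, and the fitted difference was 2.23-fold (log2 fold change -1.16, SE 0.33, 95% interval -1.90 to -0.42, edgeR p of 0.00639, adjusted p of 0.260). It shares 1.96% of its exon bases with *Ndufa2* on the opposite strand, which had a log2 fold change of 0.25 (edgeR adjusted p = 0.703), and the strand setting of the counting is not given in the sources used here. *Zmat2* (chr18:36793876-36799666, plus strand), a zinc finger gene of the spliceosome, had 33.1, 23.6 and 24.9 CPM in *Egr1*+/+ and 14.5, 18.6 and 20.8 CPM in *Egr1*-/- mice. All *Egr1*-/- values were lower, 1.51-fold by the fit (log2 fold change -0.60, SE 0.18, 95% interval -0.99 to -0.20, edgeR p of 0.00759, adjusted p of 0.272).

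*Ammecr1l* (chr18:31759826-31782743, plus strand), a gene of little known function, was the member with the lowest p among those higher in *Egr1*-/- mice. It had 23.8, 25.9 and 24.1 CPM in *Egr1*+/+ and 31.3, 29.9 and 35.9 CPM in *Egr1*-/- mice. All *Egr1*-/- values were higher, 1.32-fold by the fit (log2 fold change 0.40, SE 0.11, 95% interval 0.14 to 0.66, edgeR p of 0.00665, adjusted p of 0.260). Under scaling by total counts the log2 fold change was 0.26 with a p of 0.262, and the shift of all genes under that scaling is given at the end. An antisense RNA, *Gm26533*, overlaps it on the other strand and was at 0.991 ± 0.283 and 0.728 ± 0.418 CPM (SD, n = 3 each).

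*Hbegf* (chr18:36504927-36515805, minus strand) encodes a ligand of the EGF receptor, and *Spry4* (chr18:38586247-38601415, minus strand) an inhibitor of signalling downstream of receptor tyrosine kinases. *Hbegf* had 2.39, 2.03 and 1.53 CPM in *Egr1*+/+ and 1.53, 1.16 and 0.841 CPM in *Egr1*-/- mice, the nearest values of the genotypes being equal to 3 digits. Its log2 fold change was -0.74 (SE 0.32, 95% interval -1.46 to -0.03), with an edgeR p of 0.0427 and an adjusted p of 0.448. *Spry4* had 19.8, 15.5 and 24.9 CPM against 14.6, 12.7 and 16.5 CPM, so the genotypes overlapped. Its log2 fold change was -0.46 (SE 0.18, 95% interval -0.86 to -0.05, edgeR p of 0.0323, adjusted p of 0.411). Each lost its p under 0.05 when a single mouse was left out, *Spry4* for 4 of the 6 mice (*Egr1*+/+ replicates 1 and 3, *Egr1*-/- replicates 1 and 2) with p up to 0.161, and *Hbegf* for 4 (*Egr1*+/+ replicates 1 and 2, *Egr1*-/- replicates 2 and 3) with p up to 0.132. By DESeq2 the p of *Hbegf* was also above 0.05, at 0.0570.

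*Tmem173* (chr18:35733679-35740554, minus strand) encodes STING, the sensor adaptor of the cytosolic DNA response. It had 5.01, 4.46 and 6.12 CPM in *Egr1*+/+ and 5.37, 9.36 and 7.95 CPM in *Egr1*-/- mice, with *Egr1*-/- replicate 1 among the controls. The log2 fold change was 0.54 (SE 0.23, 95% interval 0.02 to 1.05, edgeR p of 0.0427, adjusted p of 0.448). The p was above 0.05 without *Egr1*+/+ replicate 1 or 2 or *Egr1*-/- replicate 2 or 3, up to 0.166. It was also above 0.05 under scaling by total counts (0.177) and by limma-voom (0.0645). The 6 macrophage markers summed to 289 to 391 CPM in *Egr1*+/+ and 224 to 262 CPM in *Egr1*-/- mice. Of them 4 were lower at an unadjusted p under 0.05, and none was at 0 in every mouse. Lymphocyte markers, also 6, summed to 396 to 429 CPM in *Egr1*+/+ and 302 to 651 CPM in *Egr1*-/- mice, with *Egr1*-/- replicate 1 below all controls. Most of that sum was *Ptprc*, at 245 to 495 CPM with a log2 fold change of 0.08. The median log2 fold change of the 6 lymphocyte markers was 0.45, with 1 higher at an unadjusted p under 0.05. The part of these cell types in *Tmem173* was not tested.

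The other 5 calls (*Zmat2*, *Tmco6*, *Nrep*, *3222401L13Rik* and *Ammecr1l*) kept an unadjusted p under 0.05 with each of the 6 mice left out in turn. Without *Egr1*-/- replicate 1, which had the highest mitochondrial share, 2 members were higher and 9 lower of 94 tested, against 13.0% of all genes in either direction.

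**Figure D3:**
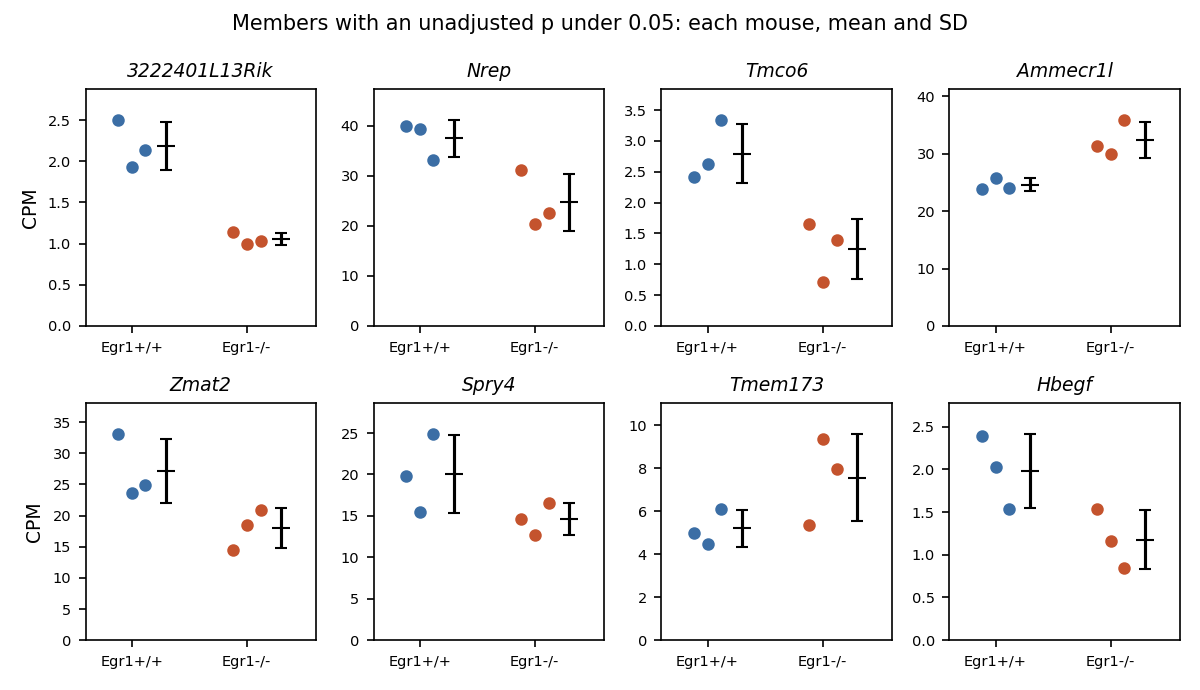
CPM (y axis, from 0) of the 8 members with an unadjusted p under 0.05 in each *Egr1*+/+ (blue) and *Egr1*-/- (orange) mouse, with mean and SD as bars. Genotypes overlap in *Spry4* and *Tmem173* and barely part in *Hbegf*, where the nearest values are both 1.53 CPM.

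By role, each group held few genes and few calls, while 10.7% of all genes were called in either direction. With groups this small, nothing is read from the number of calls in any of them, including those without a call. Of 14 genes of transcription and chromatin tested, none had an unadjusted p under 0.05. Their log2 fold changes ran from -0.23 to 0.14, the median was -0.03, and all 14 intervals lay between -1 and 1. *Nr3c1*, the glucocorticoid receptor gene at the upper end of the window, had 174, 133 and 164 CPM in *Egr1*+/+ and 144, 143 and 150.1 CPM in *Egr1*-/- mice, with overlap. Its log2 fold change was -0.11 (95% interval -0.40 to 0.19). *Pura*, a single-stranded nucleic acid binding protein gene, was at 150.1 ± 4.74 and 133 ± 8.88 CPM (SD, n = 3 each) with every *Egr1*-/- value below every *Egr1*+/+ value, and an edgeR adjusted p of 0.644. *Hdac3*, a histone deacetylase gene, was at 30.0 ± 1.57 and 31.2 ± 0.462 CPM.

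Genes of RNA processing and translation numbered 13, with a median log2 fold change of -0.06 and *Zmat2* as the single call. *Ankhd1*, an ankyrin repeat gene, was at 110.2 ± 7.66 and 117 ± 13.7 CPM (log2 fold change 0.09). Genes of protein folding and membrane traffic numbered 12, with a median of -0.24 and *Tmco6* as the single call, a gene whose place in traffic is less sure than that of the others. *Reep5*, which shapes the endoplasmic reticulum, had 91.9, 68.9 and 83.3 CPM in *Egr1*+/+ and 104, 89.2 and 103 CPM in *Egr1*-/- mice. Its values overlapped by 1 mouse (log2 fold change 0.28, edgeR adjusted p = 0.514). *Pik3c3*, a lipid kinase gene of autophagy at the lower end of the window, was at 23.2 ± 1.62 and 20.3 ± 1.38 CPM (-0.20). *Dnajc18*, a co-chaperone gene, was at 17.8 ± 1.14 and 14.9 ± 1.51 CPM with no overlap (edgeR adjusted p = 0.493).

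Among 7 genes of the cell cycle and ubiquitin transfer the median was -0.09, and the single call, *Ammecr1l*, has no settled place in that group. *Ube2d2a*, a ubiquitin-conjugating enzyme gene, was at 45.8 ± 4.80 and 45.2 ± 3.26 CPM (-0.02). *Ndfip1*, an adaptor gene of NEDD4 ubiquitin ligases, was at 40.9 ± 0.429 and 35.7 ± 1.73 CPM with no overlap (-0.19, edgeR adjusted p = 0.541). *Kif20a*, a mitotic kinesin gene, was at 3.13 ± 1.07 and 2.86 ± 0.247 CPM, while 6 markers of dividing cells summed to 83.8 to 228 CPM and 89.8 to 120 CPM with none called or at 0 in every mouse. Of 11 genes of the cytoskeleton and adhesion, with a median of -0.12, *Nrep* was the single call and is not known to be a cytoskeletal protein. *Apc* was at 158 ± 19.3 and 151 ± 18.6 CPM (-0.06), and *Gypc*, the red cell membrane glycophorin C gene, at 24.0 ± 4.68 and 22.0 ± 2.86 CPM. The 5 erythroid markers summed to 175 to 264 CPM and 85.7 to 165 CPM, 3 of them lower at an unadjusted p under 0.05 and none at 0 in every mouse, and their part in *Gypc* was not tested.

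Signalling and secreted factors had the lowest median, -0.31 over 6 tested of 7, with *Hbegf* and *Spry4* lower. These were little counted genes, with a median of 53.7 mean counts, and only 3 of the 6 intervals lay between -1 and 1. *Map3k2*, a kinase gene of the MAPK cascades, was at 50.0 ± 2.81 and 51.8 ± 4.94 CPM (0.05). *Camk4*, a calcium-dependent kinase gene, was at 12.3 ± 0.120 and 10.6 ± 4.04 CPM. The 5 immune and endothelial genes had a median of 0.00. *Tslp*, an epithelial cytokine gene, was at 0.950 ± 0.161 and 0.473 ± 0.353 CPM (-0.99, 95% interval -2.17 to 0.20), and *Mzb1*, a gene of B cells and plasma cells, at 0.762 ± 0.0849 and 1.29 ± 0.561 CPM (0.75, edgeR adjusted p = 0.527). The 6 lymphocyte markers summed to 396 to 429 CPM and 302 to 651 CPM, with 1 higher at an unadjusted p under 0.05 and none at 0 in every mouse. *Cd14*, the lipopolysaccharide co-receptor gene, had *Egr1*-/- values of 2.28 to 2.39 CPM below *Egr1*+/+ values of 2.56 to 3.03 CPM (edgeR adjusted p = 0.759). *Ecscr*, a gene of the endothelial cell surface, was at 7.41 ± 0.925 and 7.40 ± 1.53 CPM, and the 6 endothelial markers at 382 to 467 CPM and 340.3 to 514 CPM, with 1 lower at an unadjusted p under 0.05 and none at 0 in every mouse. The part of these cell types was not tested.

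Of 4 genes of transport and metabolism, none was called and the median was 0.11. *Stard4*, a sterol carrier gene, was at 15.2 ± 0.484 and 15.0 ± 2.08 CPM (-0.02), and *Gnpda1*, a glucosamine-6-phosphate deaminase gene, at 4.00 ± 0.373 and 4.74 ± 0.457 CPM with no overlap (0.24, edgeR adjusted p = 0.684). Among the 20 tested members in none of the lists, *3222401L13Rik* was the single call and the median was -0.01. *Dele1*, which relays mitochondrial stress to the integrated stress response, was at 11.7 ± 0.357 and 14.0 ± 1.29 CPM with no overlap (edgeR adjusted p = 0.503). *BC037039*, an antisense RNA, was at 0.968 ± 0.0341 and 0.490 ± 0.247 CPM with no overlap (-0.98, edgeR adjusted p = 0.480).

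**Figure D4:**
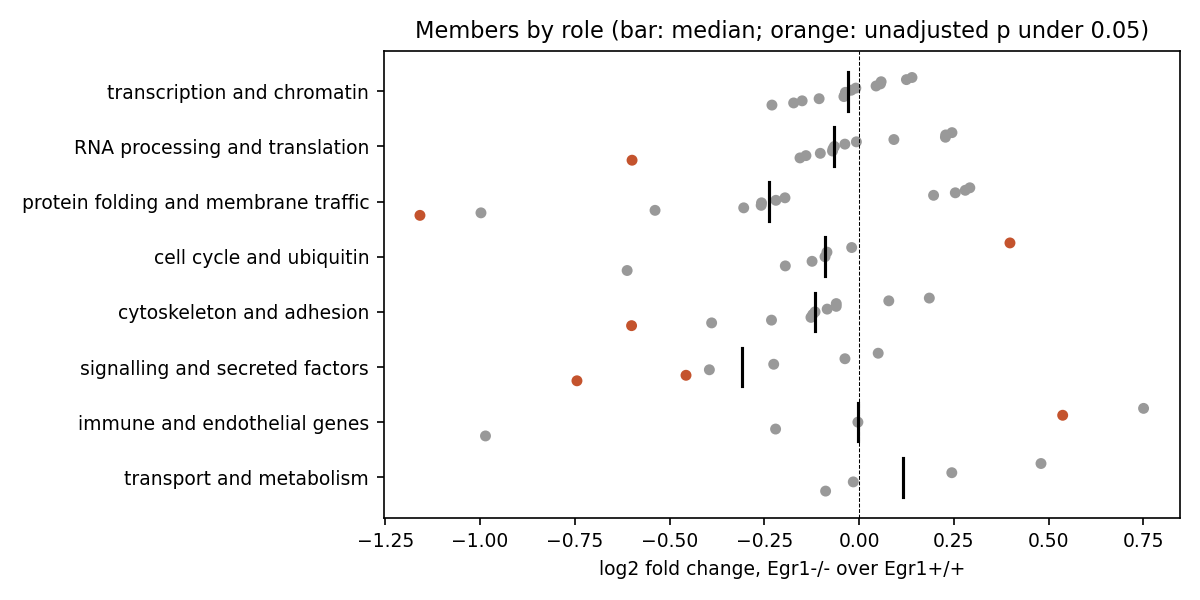
Log2 fold change (*Egr1*-/- over *Egr1*+/+, x axis) of each tested member in 8 role groups (y axis), with the median as a bar and members with an unadjusted p under 0.05 in orange. The 14 transcription and chromatin genes lie between -0.23 and 0.14, and the 6 signalling and secreted factors have the lowest median, -0.31.

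Across mice, the median member stood close to its *Egr1*+/+ mean. Each mouse's median log2 ratio to the *Egr1*+/+ mean was 0.01, -0.05 and 0.00 in *Egr1*+/+ and -0.08, -0.06 and -0.04 in *Egr1*-/- mice. *Egr1*+/+ replicate 2 lay among the *Egr1*-/- mice, and the medians over all genes tested were between -0.02 and 0.00.

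**Figure D5:**
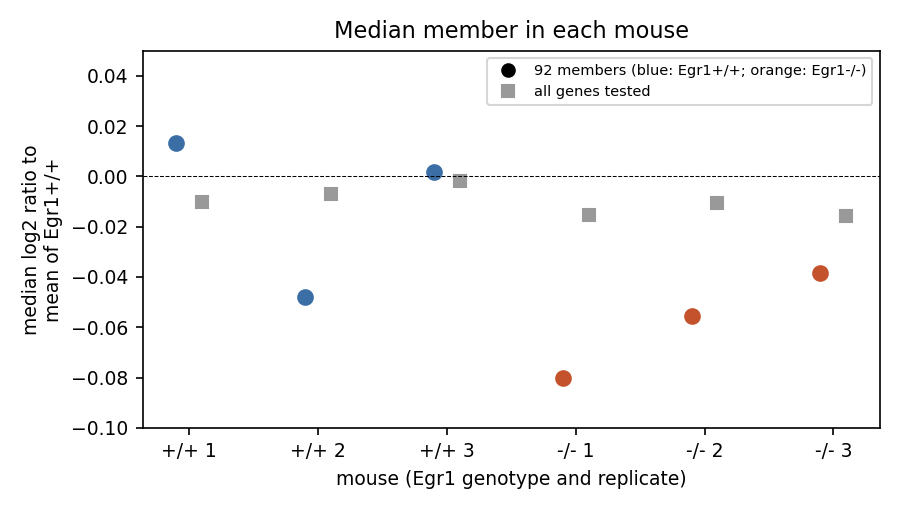
Median log2 ratio to the *Egr1*+/+ mean (y axis) over the 92 tested members (circles, *Egr1*+/+ blue and *Egr1*-/- orange) and over all genes tested (grey squares) in each mouse (x axis). *Egr1*-/- mice range from -0.08 to -0.04, and *Egr1*+/+ replicate 2, at -0.05, lies within that range.

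Precision followed the counts. Over the 92 members the Spearman rho of mean counts with absolute log2 fold change was -0.45. The 47 members with at least the median of mean counts all had a 95% interval between -1 and 1 on the log2 scale, but only 19 of the other 45 did, so 66 of 92 members did (71.7%, against 68.7% of all genes). The intervals of the remaining members reached past a 2-fold difference. The 14 members that are not protein coding had a median of -0.14, with a median absolute log2 fold change of 0.47, and the 78 protein coding ones a median of -0.06. Opposite-strand exon overlap was present in 32 tested members, with a median of -0.06, against -0.07 for the 60 without.

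Levels per kb of exon in *Egr1*+/+ mice spanned from 93.6 CPM per kb in *Hspa9* to 0.0479 CPM per kb in *Gm26672*, with *Reep5* at 25.8, *Etf1* at 23.8 and *Nr3c1* at 20.4 CPM per kb. The nearest genes outside the window that met the count limit were *Celf4*, starting -9.38 Mb from *Egr1*, with a log2 fold change of 0.17 (edgeR adjusted p = 0.919), and *Yipf5*, starting 5.34 Mb from it, with -0.19 (edgeR adjusted p = 0.676). Near the count limit, *Dnd1* had a log2 fold change of 0.23, *Gm23205* 0.45 and *Gm15337* -0.72, all with overlapping genotypes. Just below it, with 10 counts in 2 mice, were *B930094E09Rik*, *Nme5*, *Lrrtm2*, *Nrg2*, *Gm20162* and *Gm24401*, with 6.33 to 9.33 counts per mouse on average.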

How the data were processed

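SC-WAT RNA of 3 *Egr1*+/+ and 3 *Egr1*-/- mice was sequenced after rRNA removal, using a kit that keeps strand. The authors mapped reads with TopHat and Bowtie, guided by GENCODE M8, counted them with featureCounts and deposited raw counts per gene, without normalization. Strand and multimapping settings are not given in the sources used here. Genes were named and placed with GENCODE M21 (GRCm38), which matched 46488 identifiers. Overlapping genes on opposite strands may share reads.

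Counts were fitted over all genes in R 4.3.3 with edgeR 4.0.16 (TMM, filterByExpr, quasi-likelihood test, Benjamini-Hochberg over all genes). A p threshold of 0.05 was used throughout, and calls are at the unadjusted p unless stated. CPM are TMM-scaled. Per-mouse ratios used a pseudocount of 0.1 CPM. Intervals are 95%. DESeq2 1.42.0, limma-voom (limma 3.58.1), RLE, upper-quartile and total-count scaling, leaving out mitochondrial genes, other filters, other windows, a replicate block and leaving out each mouse were alternatives. The scripts were tested on simulated data. Each library is a separate mouse. The mice came from several litters, fewer than the number of mice, so some shared a litter. The paper names an *Egr1*+/+ and an *Egr1*-/- mouse as littermates and does not say which others were. Replicate numbers are not tied to litters. The members, the role and marker lists, and the tests were chosen with earlier results of these data known.

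Named members were the 5 nearest on each side, those with an unadjusted p under 0.05, those past an adjusted p in edgeR or DESeq2, the 2 most counted of each role list, and those at the edges of the window and count limit. *Hars2*, *Hars*, *Taf7*, *Hdac3*, *Dnajc18*, *Kif20a*, *Gypc*, *Camk4*, *Tslp*, *Mzb1*, *Cd14*, *Dele1*, *BC037039* and *Gm26533* were added after their values had been seen.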

Additional observations from a re-analysis of the deposited data

How the results depend on the processing

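Scaling by total counts, which moved the median of all genes to -0.15, left 0 members higher at an unadjusted p under 0.05, and 0 without overlap and higher (1.44% of all genes). It moved the median of the members to -0.21, and the medians by distance to -0.20, -0.31 and -0.16 from the nearest to the farthest. Relative to all genes the members' median was -0.07 under both scalings. Under total counts 9 of 92 members were lower, and 8.89% of all genes were called in either direction. Without overlap and lower were 15 of 92 members, while 12.5% of all genes were. Of all calls, 89.2% were lower under total counts and 52.5% under TMM. *Egr1* was then at -2.39 (adjusted p = 0.000372), without the low-count filter at -2.18 (1.39e-20) and by DESeq2 at -2.19 (1.86e-10). Without the filter, 3 members (*Nrep*, *Zmat2*, *Tmco6*) were past the adjusted threshold, as were 552 of 38261 genes. The members had all met a count limit and many of those genes had not, so these counts are not over like sets. By DESeq2 1 member (*Nrep*) was past the threshold. By limma-voom 1 member was higher, and the median within 1 Mb was -0.020. Restricting the window to 1 Mb gave 1 higher and 0 lower (3.1% called), and to 2.5 Mb 1 higher and 4 lower (8.33%), against 10.7% of all genes. The cause of these shifts was not tested.

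Leaving out each mouse gave 1 to 3 members higher, 4 to 9 lower, and 0 past the adjusted threshold. The share of all genes called moved too. It was 6.38% without *Egr1*-/- replicate 3, with 1 member higher and 8 lower of 94. Without *Egr1*-/- replicate 1 it was 13.0%, with 2 members higher and 9 lower of 94, and 59 of 18258 genes were past the adjusted threshold. The count of members higher was 1 without *Egr1*+/+ replicate 2 or *Egr1*-/- replicate 3. The median of the members ran from -0.097 to -0.032, and by distance from -0.10 to -0.014, -0.20 to -0.12 and -0.032 to 0.030. *Egr1* ran from -2.39 to -1.84 (adjusted p 0.0484 to 0.469). Signs turned in *Gm3550* (-0.24 to 0.32), *Gm26538* (-0.98 to 0.20), *Etf1* (-0.15 to 0.016), *Ube2d2a* (-0.10 to 0.031), *Apc* (-0.16 to 0.022), *Ecscr* (-0.18 to 0.12), *Stard4* (-0.13 to 0.049), *Dnd1* (-0.047 to 0.83) and *Gm15337* (-1.39 to 0.020). They also turned under total counts in *Kdm3b* (-0.076), *Ankhd1* (-0.043) and *Map3k2* (-0.087), without the filter in *Ecscr* (0.0072), and in *Gm3550* by limma-voom (0.026). The cause was not tested, and no p in these was under 0.05.

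Same-numbered mice did not deviate together (correlations -0.09, 0.11 and -0.13), so the numbers were not taken to pair them. With the replicate block, *Gm3550* was at 0.013, 10 members had an unadjusted p under 0.05 and 1909 genes did, none past the adjusted threshold. *Tmem173* had a p of 0.0533 and *Reep5* 0.0432 in that fit. Depth limits the less counted members: of the 45 below the median of mean counts, only 19 had a 95% interval between -1 and 1 on the log2 scale.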
